A study of Mus musculus with 6 samples.

Results

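A set of 8 genes known as transient transcripts of the mouse two-cell embryo was followed in embryos that overexpressed PIASy. They were Zfp352, Spz1, Tcstv1, Tcstv3, Tmem92, Usp17la, Usp17lc and Usp17le. They were taken by name and make up 8 of the 53023 genes of the expression table. PIASy, the product of Pias4, is a nuclear protein that attaches the small modifier SUMO to other proteins. The 3 groups of ICR strain embryos were collected at the two-cell stage, 28 hours post insemination (hpi). The PIASy-WT group had received mRNA for mCherry-HA-tagged wild-type PIASy. The PIASy-Mut group had received mRNA for the same protein with the C335F change in its RING finger, the domain needed for SUMO ligation. Each mRNA was injected into the cytoplasm at 100 ng/µl between 1.5 and 3 hpi, and zygotes with a fluorescent signal at 9 hpi were kept. The non-injection group consisted of uninjected embryos, so PIASy-Mut is also the group that controls for the injection itself. Each group had 2 RNA-seq libraries of 5 pooled embryos.

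In the mouse, the embryonic genome is switched on in earnest at the two-cell stage, and a set of genes is transcribed in a short burst there and is then shut off. Many of these genes lie in tandem clusters or near copies of the retrovirus-like element MERVL, and they come on again in the rare cells of embryonic stem cell cultures that resemble two-cell embryos. The question put to them here is whether an excess of PIASy, and of its SUMO ligase activity, changes their abundance at this stage. Zfp352, Spz1 and Tcstv3 were lower in both PIASy-WT libraries than in the other 4, as were 24.4% of all genes tested. The mean FPKM of Zfp352, Spz1 and Tcstv3 was 1.83, 2.97 and 2.18 times as high in uninjected as in PIASy-WT embryos. Usp17le was above the other 4 in both PIASy-WT libraries, at low fragment counts, where 19.9% of all genes tested were above. Of these differences, that of Tcstv3 from PIASy-Mut alone passed the main test across all genes (limma, adjusted P=0.0499), where 6.01% of all genes were lower. It was kept in 3 of 14 alternative analyses. The voom alternative, on fragment counts, called 3 of the 8 lower and 1 higher against non-injection, and 4 lower and 1 higher against PIASy-Mut. It called 19% and 8.51% of all genes in the former, and 18.8% and 5.94% in the latter.

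The libraries held between 871663 and 1363928 fragments on genes. The values are FPKM, the fragments on a gene scaled to its length and to the library's total, a scale on which genes of different length can be compared. The injected transcript was seen where the labels place it, since Pias4 was between 579 and 862 FPKM in the 4 libraries of injected embryos and at most 3.59 FPKM in the uninjected ones. Of 42 further two-cell genes, 37 were above 3 fragments in at least 1 library. Of 15 genes of the cumulus cells that surround the oocyte, 5 (Inha, Inhba, Amh, Foxl2 and Lum) were at 0 in all 6 libraries and 5 exceeded 3 fragments in any. Their summed level was 8.80 to 11.5 CPM (fragments scaled to the library's total only) in uninjected embryos, 11.6 to 19.5 with PIASy-Mut and 18.1 to 21.8 with PIASy-WT. The summed level of 20 oocyte transcripts, which the embryo inherits and degrades, was 8802 to 9630, 6429 to 12072 and 18488 to 19703 CPM in the same order. For 12 morula and blastocyst genes it was 163 to 179, 144 to 209 and 255 to 261. The oocyte and later-stage sums of both PIASy-WT libraries stood above those of all others. Their part in the results below was not tested. Each library is a pool, so fewer expressing embryos or cells and less RNA in each of them cannot be told apart.

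Zfp352, which encodes a zinc finger protein and is a standard marker of the two-cell state, lies on the plus strand of chromosome 4 (ENSMUSG00000070902.5, chr4:90218820-90225702, mm10). The 250 bases before its start are printed because they consist largely of 1 short unit in tandem. The capitals mark TAATCC, the core that homeodomain factors of the OTX and OBOX class bind, searched on both strands (RefSeq, GRCm38.p6, chr4:90218570-90218819, plus strand).

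Zfp352: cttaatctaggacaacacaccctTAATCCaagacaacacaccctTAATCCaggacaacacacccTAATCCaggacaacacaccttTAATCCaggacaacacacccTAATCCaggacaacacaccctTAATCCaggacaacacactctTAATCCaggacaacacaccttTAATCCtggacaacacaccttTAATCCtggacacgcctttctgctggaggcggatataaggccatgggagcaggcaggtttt

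The core was found 9 times, all in the same orientation, with the first base of the matches at positions -227 to -61 relative to the start. Neighbouring copies began 20 or 21 bases apart. At least 1 match was present in 6.25% of the 32851 windows of this length in the RefSeq table, and 9 or more in 1 window, that of Zfp352 itself. A match is a feature of the sequence and does not show that a factor binds it.

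The FPKM of Zfp352 was 326 and 293 in the uninjected libraries, 291 and 326 with PIASy-Mut and 194 and 144 with PIASy-WT. Both PIASy-WT libraries were below all 4 others, which lay close together. The log2 fold change on the scale of FPKM + 1 was -0.88 between PIASy-WT and the uninjected group (standard error 0.25, limma, adjusted P=0.0877) and -0.88 against PIASy-Mut (limma, adjusted P=0.0899), so neither difference passed the threshold of 0.05. PIASy-Mut and non-injection gave a log2 fold change of -0.0032 with a 95% confidence interval from -0.62 to 0.61. Of the 50-base stretches of Zfp352, 7.09% occur in another gene, mostly in the pseudogene Zfp353-ps on chromosome 8. Zfp353-ps measured 45.3 and 105 in uninjected embryos, 39.9 and 49.4 with PIASy-Mut and 36.1 and 35.3 with PIASy-WT, and passed in neither comparison of PIASy-WT (limma, adjusted P=0.204 and 0.667).

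Spz1, a leucine zipper transcription factor first described in the testis, lies on chromosome 13 (ENSMUSG00000046957.5, chr13:92574636-92576172, minus strand). Its FPKM was 27.7 and 27.0 in uninjected embryos, 29.6 and 24.6 with PIASy-Mut and 12.8 and 5.66 with PIASy-WT, the last from 26 and 10 fragments. The PIASy-WT libraries again lay below all others. The log2 fold change relative to uninjected embryos was -1.57 (standard error 0.39, limma, adjusted P=0.0672) and it was -1.55 against PIASy-Mut (limma, adjusted P=0.0687). These were the most negative values of the 8 genes in both comparisons of the main fit, and neither passed. Over the 14 alternatives they ran from -2.09 to -1.04 and from -2.07 to -1.03. Against PIASy-Mut, Tcstv3 was at -1.13 or lower in all 14, so Spz1 was not the most negative throughout. No 50-base stretch of Spz1 occurs in another annotated gene. Shorter stretches and unannotated sequence were not compared.

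Tcstv1 and Tcstv3 belong to the two-cell-stage variable group, a cluster of closely related genes. Both lie on chromosome 13, Tcstv1 at chr13:119893388-119894785 on the minus strand (ENSMUSG00000096284.2) and Tcstv3 at chr13:120316878-120318178 on the plus strand (ENSMUSG00000095821.2). Tcstv3 had the highest FPKM of the 8 genes in every library. It measured 464 and 562 in the uninjected libraries, 706 and 523 with PIASy-Mut and 277 and 193 with PIASy-WT. The PIASy-WT libraries did not overlap with the others. Tcstv3 fell against PIASy-Mut with a log2 fold change of -1.39 (standard error 0.30, limma, adjusted P=0.0499), just inside the threshold, and the value against non-injection was -1.14 (limma, adjusted P=0.0731). The call against PIASy-Mut was kept in 3 of 14 alternative analyses, and over all 14 its adjusted P ran from 0.0271 to 0.284 by limma on FPKM and was 0.00365 by voom. Leaving out any 1 library other than the second of PIASy-Mut ended it, in fits where 0 of all genes tested passed.

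Tcstv1 measured 220 and 228 in the uninjected libraries, 199 and 259 with PIASy-Mut and 202 and 159 with PIASy-WT. The groups overlapped, since the first PIASy-WT library was above the lower PIASy-Mut library. The log2 fold change of PIASy-WT was -0.32 relative to uninjected embryos (95% confidence interval -0.95 to 0.31) and -0.34 relative to PIASy-Mut (-0.97 to 0.29). Over the 14 alternatives these values ran from -0.49 to -0.15 and from -0.53 to -0.10. Of the fragments on both genes together, Tcstv3 took 54.1% and 57.8% in uninjected embryos, 66.4% and 52.9% with PIASy-Mut and 43.3% and 40.3% with PIASy-WT. Its share was thus lowest in both PIASy-WT libraries. Of the 50-base stretches of Tcstv3, 31.4% occur in another gene, and of those of Tcstv1 15.0%, chiefly in Gm21818 for both. Only uniquely mapped reads were counted, so fragments that matched more than 1 place are missing from the values. Of the further two-cell genes, AF067063, AF067061, Gm20767 and Gm21761 lie in the same stretch of chromosome 13. AF067063 fell in PIASy-WT against non-injection and PIASy-Mut, with log2 fold changes of -1.93 and -2.26 (limma, adjusted P=0.0384 and 0.0293). The values were -0.41 and -0.27 for AF067061, -0.80 and -0.47 for Gm20767 and -0.69 and -0.65 for Gm21761, and these did not pass.

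**Figure D1:**
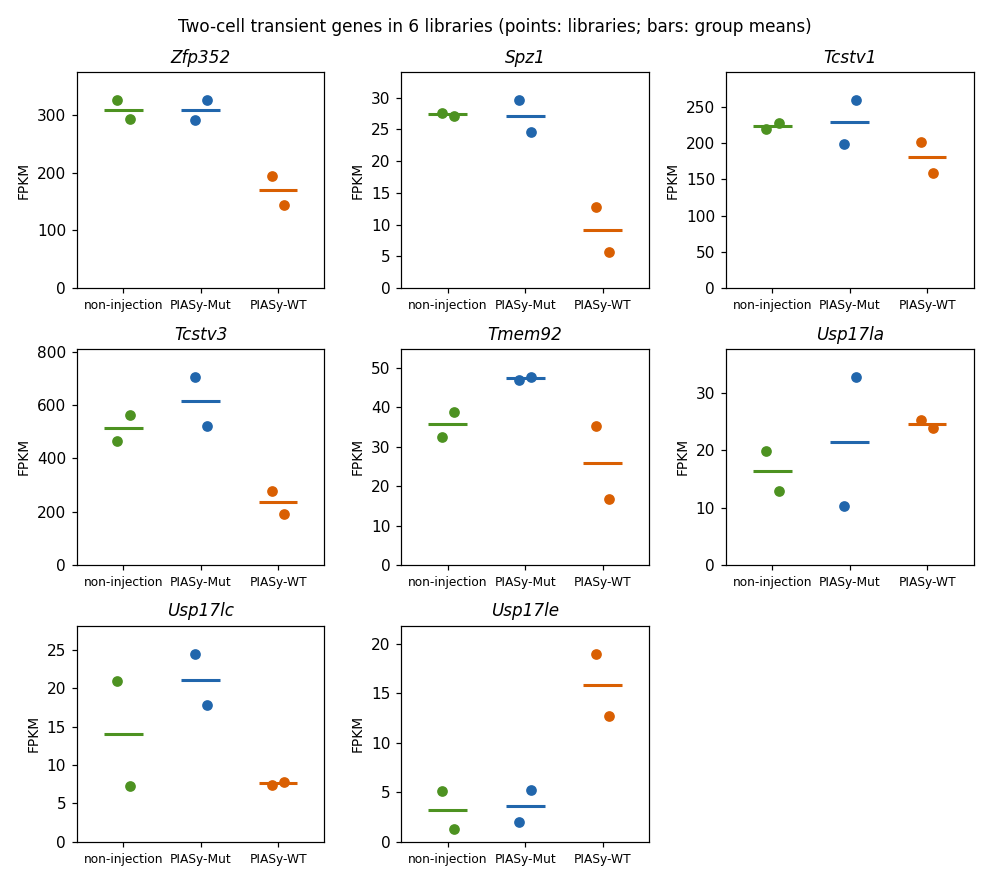
FPKM of the 8 genes (vertical axes, each starting at 0) in uninjected embryos, PIASy-Mut and PIASy-WT, with a point for each of the 2 libraries and a bar for the group mean. The PIASy-WT points lie below all others for Zfp352, Spz1 and Tcstv3 and above all others for Usp17le.

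Tmem92 encodes a transmembrane protein (ENSMUSG00000075610.9, chr11:94777217-94782703, minus strand). Its FPKM was 32.5 and 38.8 in uninjected embryos, 47.0 and 47.7 with PIASy-Mut and 35.2 and 16.7 with PIASy-WT. The 2 PIASy-WT libraries differed, with 102 fragments in the first and 42 in the second, and the first lay among the non-injection values. Relative to uninjected embryos its log2 fold change was -0.53, and relative to PIASy-Mut it was -0.93, and neither passed (limma, adjusted P=0.404 and 0.177). Without the second PIASy-WT library they became -0.014 and -0.42, and without the first they became -1.04 and -1.45.

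The Usp17l genes encode deubiquitinating enzymes, which remove ubiquitin from proteins, and form a cluster on chromosome 7. Usp17la (ENSMUSG00000054568.7, chr7:104857009-104862667, plus strand), Usp17lc (ENSMUSG00000058976.4, chr7:103415072-103419880, plus strand) and Usp17le (ENSMUSG00000043073.10, chr7:104768049-104777470, minus strand) are described together with their paralog Usp17lb (ENSMUSG00000062369.2, chr7:104840257-104842603, minus strand). The upstream sequences of Usp17la and Usp17lb are printed to show how alike the regions before 2 genes with different values are. The capitals mark CCAAT or its complement ATTGG and the TATA-box core TATAAA, each searched on both strands, and no base fell in more than 1 motif (RefSeq, GRCm38.p6, Usp17la chr7:104856766-104857015, plus strand, Usp17lb chr7:104842584-104842833, minus strand).

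Usp17la: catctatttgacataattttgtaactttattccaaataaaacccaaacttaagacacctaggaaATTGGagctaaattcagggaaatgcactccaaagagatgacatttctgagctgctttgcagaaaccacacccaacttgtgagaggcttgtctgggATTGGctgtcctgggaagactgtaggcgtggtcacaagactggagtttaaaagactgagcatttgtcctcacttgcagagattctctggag

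Usp17lb: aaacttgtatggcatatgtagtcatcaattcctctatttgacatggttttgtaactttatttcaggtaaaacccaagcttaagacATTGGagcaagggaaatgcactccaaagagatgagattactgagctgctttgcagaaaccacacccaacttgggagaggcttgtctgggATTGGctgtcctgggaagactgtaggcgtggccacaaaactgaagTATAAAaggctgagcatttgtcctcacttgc

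The aligned parts of both windows, 220 bases, were identical at 93.2% of positions. Among the 4 Usp17l genes with a window, the pairs ranged from 92.7% to 97.3%. Usp17la had 2 CCAAT matches and 0 of TATAAA, Usp17lb had 2 and 1, and Usp17lc had 4 and 1. Over all windows of the table, 33.8% held CCAAT and 12.4% held TATAAA. The first base of the TATAAA match was at position -31 in Usp17lb and at -88 in Usp17lc. All positions count from the RefSeq start, which lies 7 bases downstream of the start of the deposited gene span in Usp17la, 20 in Usp17lb and 1624 in Usp17lc, so the window of Usp17lc is within its deposited span. For Zfp352 both starts coincide. The absence of a match in Usp17la says only that these letters are not in its window.

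Usp17la measured an FPKM of 19.9 and 13.0 in uninjected embryos, 10.2 and 32.8 with PIASy-Mut and 25.3 and 23.9 with PIASy-WT. The PIASy-Mut libraries spanned the values of both other groups. Its log2 fold changes in PIASy-WT were 0.58 and 0.39 (95% confidence intervals -0.74 to 1.90 and -0.93 to 1.72 against non-injection and PIASy-Mut). Over the 14 alternatives the former ran from 0.29 to 0.87. The value against PIASy-Mut ran from -0.40, without the first PIASy-Mut library, to 1.19.

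Usp17lc measured 20.9 and 7.21 in uninjected embryos, 24.5 and 17.8 with PIASy-Mut and 7.38 and 7.80 with PIASy-WT. The second non-injection library, with 20 fragments, was the lowest of all 6, so PIASy-WT was separate from PIASy-Mut and not from non-injection. Its log2 fold change was -0.64 relative to uninjected embryos and -1.35 relative to PIASy-Mut (limma, adjusted P=0.439 and 0.146), and the former became 0.07 without the first non-injection library. Of its 50-base stretches 44.7% occur in another gene, mostly in Usp17ld, and it overlaps the microRNA gene Gm25774 on the same strand.

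Usp17le had positive differences. Its FPKM was 19.0 and 12.7 with PIASy-WT, from 50 and 29 fragments, and it was 5.17 and 1.34 in uninjected embryos and 1.95 and 5.20 with PIASy-Mut, from 3 to 14 fragments. Both PIASy-WT libraries stood above all others. The log2 fold changes, 2.12 from the uninjected group and 1.95 from PIASy-Mut (standard error 0.61 in both), did not pass (limma, adjusted P=0.0877 and 0.105). On leaving out 1 library they ran from 1.42 to 2.82 and from 1.42 to 2.49, each bound set by an uninjected or PIASy-Mut library. The pseudogene Usp17le-ps, at 0 fragments in both uninjected libraries, had 0 and 1 with PIASy-Mut and 2 and 11 with PIASy-WT.

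Usp17lb had the highest FPKM of the family in every library. Its FPKM was 387 and 420 in the uninjected libraries, 582 and 415 with PIASy-Mut and 66.7 and 69.7 with PIASy-WT. The PIASy-WT libraries were close to each other and far below the other 4. Usp17lb fell in both comparisons of PIASy-WT, with a log2 fold change of -2.55 from the uninjected group (standard error 0.26, limma, adjusted P=0.0224) and of -2.83 from PIASy-Mut (limma, adjusted P=0.0219), and the call was kept in 10 and 8 of 14 alternatives. Leaving out any 1 uninjected or PIASy-WT library ended both calls, and leaving out the first PIASy-Mut library ended the call against PIASy-Mut, each in fits where 0 of all genes tested passed. Over the alternatives, voom included, the adjusted P by limma ran from 0.000129 to 0.244 and from 6.34e-05 to 0.216, and voom gave the lowest of both. The difference between PIASy-Mut and non-injection was 0.28 (95% confidence interval -0.34 to 0.91). Usp17ld, with 7 to 20 fragments per library, did not pass in any comparison (limma, adjusted P=0.458, 0.652 and 1 against non-injection, against PIASy-Mut and between these).

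Over the 6 Usp17l genes of the table, the summed level was 728 and 718 CPM in the uninjected libraries, 1011 and 797 with PIASy-Mut and 238 and 244 with PIASy-WT. Usp17lb held between 81.2% and 91.4% of these fragments in the 4 other libraries and 43.7% and 44.6% with PIASy-WT. The share of Usp17la, Usp17lc and Usp17le together was 15.7% and 7.64% in uninjected embryos, 9.00% and 17.7% with PIASy-Mut and 51.6% and 44.3% with PIASy-WT. In CPM these 3 genes together gave 114 and 54.8, 91.1 and 141, and 123 and 108, with PIASy-WT within the range of the others. The shares are of fragments and were not corrected for gene length. Of the 50-base stretches of Usp17la, Usp17lb and Usp17le, between 20.1% and 29.8% occur in another gene, so single members of the family are uncertain.

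**Figure D2:**
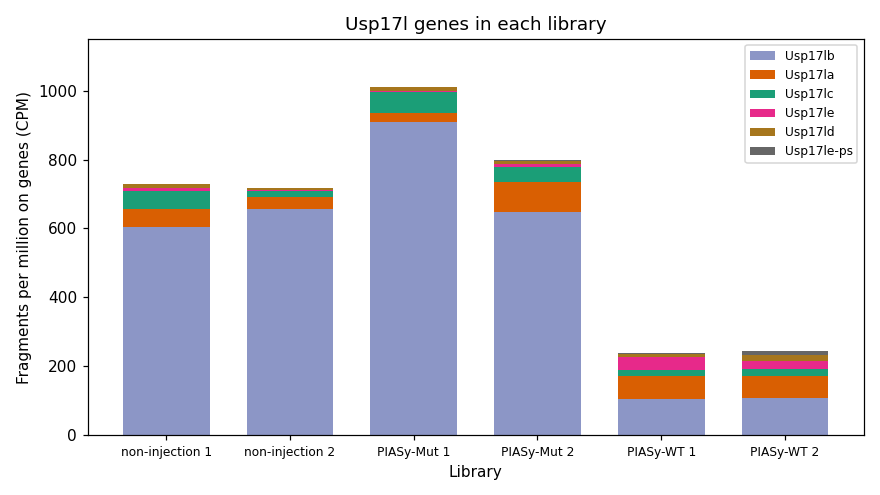
CPM, fragments scaled to the library's total (vertical axis) for each of 6 Usp17l genes, stacked, in the 6 libraries (horizontal axis). The stack reached 718 to 1011 in the first 4 libraries and 238 and 244 with PIASy-WT, where the segment of Usp17lb was the one that was far smaller.

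By level, Tcstv3, Zfp352 and Tcstv1 followed each other in this order in all 4 libraries without wild-type PIASy mRNA. In non-injection the gaps between these neighbours exceeded the spread between the 2 libraries, with means of 513 ± 69.2, 309 ± 23.6 and 224 ± 6.08 FPKM (SD, n=2). In PIASy-WT the means were 235 ± 59.2 for Tcstv3, 181 ± 30.1 for Tcstv1 and 169 ± 35.2 for Zfp352. There Zfp352 was below Tcstv1 in both libraries, by less than the spread of either gene. Tmem92 and Spz1 came next in uninjected embryos, at 35.7 ± 4.45 and 27.4 ± 0.44, and the 3 Usp17l genes lay lowest, at 3.25 to 16.4, with Usp17la and Usp17lc not separable from each other. In PIASy-WT the mean of Spz1 was 9.21 ± 5.02, among the Usp17l genes, and that of Usp17le was 15.8 ± 4.45.

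All 8 genes passed the filter on low values (1 FPKM or more in 2 or more libraries) and are among the 16100 tested. In PIASy-WT against non-injection, 0 of the 8 were lower at an adjusted P of at most 0.05 (limma), where 5.76% of all genes tested were lower, and 0 were higher, where 1.03% were. At an unadjusted P under 0.05 there were 4, Spz1, Tcstv3, Zfp352 and Usp17le, where 28.2% of all genes were. Voom on the fragment counts called 3 lower and 1 higher, where it called 19% and 8.51% of the 10193 genes it tested. Against PIASy-Mut, 1 of the 8 was lower (Tcstv3), where 6.01% of all genes were, and 0 were higher, where 0.82% were. Here 6 had an unadjusted P under 0.05, where 27.7% of all genes had. Voom called 4 lower and 1 higher, where it called 18.8% and 5.94% of all genes. The log2 fold change was negative for 6 of the 8 in either comparison, where it was for 7911 and 8255 of the 16100 genes tested. The median of the 8 was -0.59 relative to uninjected embryos and -0.90 relative to PIASy-Mut, beside medians over all genes of 0.01 and -0.03. With quantile normalization these medians were -0.32 and -0.63 beside 0.12 and 0.11 over all genes, and without the second PIASy-WT library the median of the 8 against PIASy-Mut was -0.54. The 2 PIASy-WT libraries serve in both comparisons. In PIASy-Mut against non-injection, 0 of the 8 passed, where 0.00621% of all genes passed in either direction, 1 gene, Pias4. There 0 of the 8 had an unadjusted P under 0.05, where 4.46% of all genes had, and voom called 0, where it called 0.0196% of all genes.

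Both PIASy-WT libraries were below the other 4 for 3 of the 8 genes, where 24.4% of all genes tested were, and above them for 1, where 19.9% were. The fragments of all 8 genes together came to 1639 and 1604 CPM in the uninjected libraries, 1730 and 1795 with PIASy-Mut and 1160 and 855 with PIASy-WT.

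**Figure D3:**
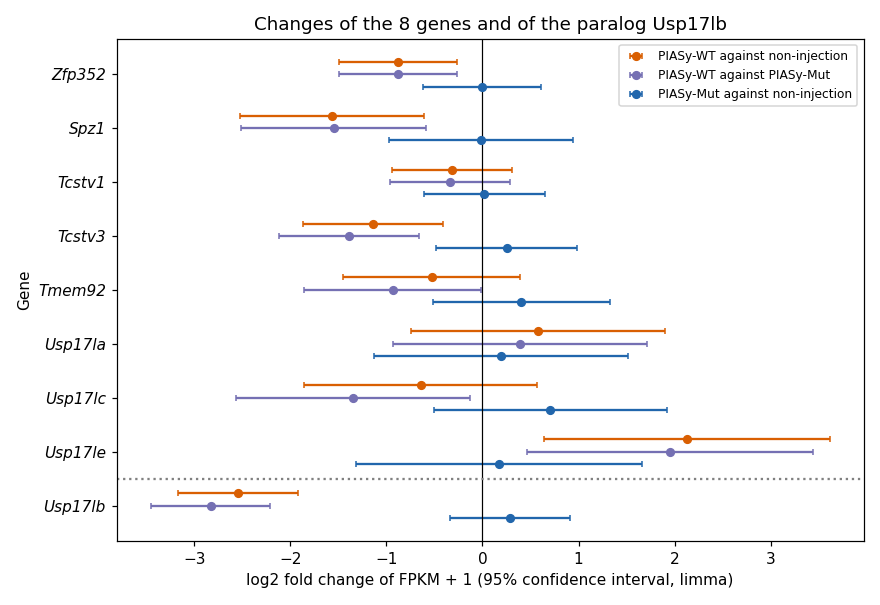
Log2 fold change of FPKM + 1 (horizontal axis) with its 95% confidence interval from limma for each of the 8 genes and, below the dotted line, Usp17lb, in 3 comparisons. The intervals of Zfp352, Spz1, Tcstv3 and Usp17lb lie below 0 and those of Usp17le above 0 in both comparisons of PIASy-WT, and those of PIASy-Mut against non-injection all include 0.

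The 42 other two-cell genes, a list that holds Usp17lb and Usp17ld, were chosen with earlier results of these data known. Of these, 37 were tested, and their counts beside those of all genes are descriptive only. Against non-injection 8 fell and 0 rose (limma, adjusted P of at most 0.05), where 5.76% of all genes were lower and 1.03% higher, with a median log2 fold change of -0.69 over the 37. Against PIASy-Mut 8 fell and 0 rose, where 6.01% and 0.82% of all genes did, with a median of -0.65. Both counts of genes that fell became 0 without any 1 uninjected or PIASy-WT library, and the second also became 0 without the first PIASy-Mut library and with the 4 libraries alone. With no filter they were 2 and 3, and so they were with eBayes without trend. By the mean log2 fold change of both comparisons, the list had its most negative values at Usp17lb, at Calcoco2, which encodes an autophagy receptor, and at Tdpoz2, a gene of the TD and POZ domain family. Calcoco2 measured an FPKM of 72.8 and 71.5 in uninjected embryos, 133 and 53.1 with PIASy-Mut and 17.7 and 8.05 with PIASy-WT. It fell in both comparisons, with log2 fold changes of -2.49 and -2.71 (limma, adjusted P=0.0479 and 0.0408), calls that were kept in 6 and 4 of 14 alternatives and ended without any 1 uninjected or PIASy-WT library, the second also without the first PIASy-Mut library. Tdpoz2, from 2 fragments in each PIASy-WT library, had values of -1.75 and -3.02 that did not pass (limma, adjusted P=0.159 and 0.0542). The former became -0.80 without the second uninjected library and -2.70 without the first.

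The 9 Zscan4 genes, a chromosome 7 family that marks the same stage, had the most positive values of the list by the same mean at Zscan4-ps3, Zscan4a and Zscan4f. In Zscan4-ps3 the FPKM was 27.7 and 14.8 in uninjected embryos, 20.4 and 69.0 with PIASy-Mut and 60.3 and 52.3 with PIASy-WT, so the PIASy-Mut libraries enclosed the PIASy-WT ones. Of the 9, 0 passed in either comparison of PIASy-WT by limma, 0 had an unadjusted P under 0.05, where 28.2% and 27.7% of all genes had, and voom called 1 of the 8 it tested higher against non-injection, where it called 8.51% of all genes. Zscan4d had the most fragments of the 9 in every library, 144 to 394, and its log2 fold changes were -0.22 and -0.13. Zscan4-ps1, Zscan4b, Zscan4c, Zscan4e and Zscan4f had 34 or fewer in each library. The median of the 9 was 0.70 on the log2 scale relative to uninjected embryos and 0.25 relative to PIASy-Mut. Between PIASy-Mut and non-injection it was 0.87. The median against non-injection became 0.29 without the first PIASy-WT library and 1.27 with a pseudocount of 0.1. The median against PIASy-Mut turned to -0.95 without the first PIASy-Mut library and to -0.24 without the first PIASy-WT library. Without the second PIASy-Mut library it was 1.37, and limma then called 2 of the 9 higher against PIASy-Mut, where it called 5.37% of all genes higher. The 7 genes of the list on chromosome 12, relatives of the translation initiation factor gene Eif1a, had a negative log2 fold change throughout, with medians of -0.82 and -0.91. Over all 16100 genes tested, 7911 and 8255 had a negative value. Of the 7, 0 passed by limma in either comparison. An unadjusted P under 0.05 was found for 4 in each, where 28.2% and 27.7% of all genes had it. Voom called 3 lower in each, where it called 19% and 18.8% of all genes. With the filter of FPKM of at least 5, limma called 1 of the 7 lower in each, where it called 17.4% and 17.9% of all genes lower. Against non-injection it also called 1 with the 4 libraries alone and without the first or the second PIASy-Mut library, where it called 9.71%, 9.66% and 10% of all genes lower.

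**Figure D4:**
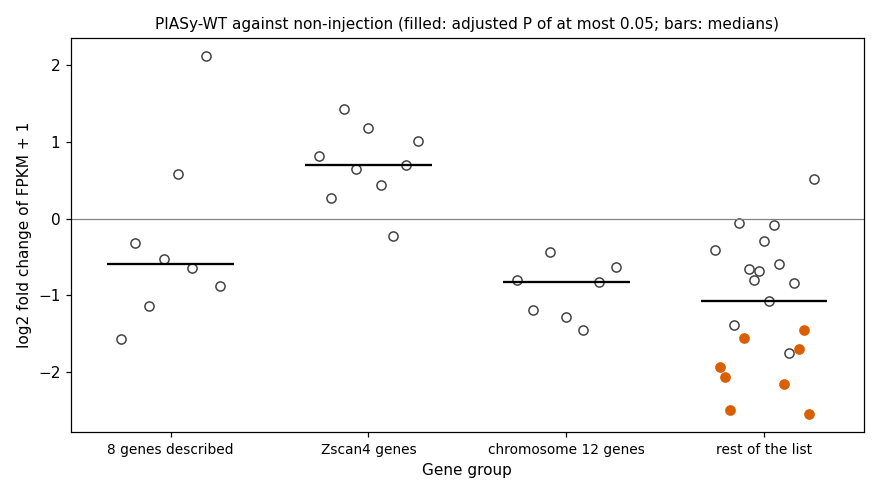
Log2 fold change of FPKM + 1 in PIASy-WT against non-injection (vertical axis) for the 8 genes described, the 9 Zscan4 genes, the 7 chromosome 12 genes and the other 21 tested two-cell genes, with a circle per gene, filled where limma's adjusted P was at most 0.05, and a bar at the median. The filled circles, 8 in all, are in the last group, and the Zscan4 genes lie mostly above 0.

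The genes whose profile over the 6 libraries was nearest to that of a given gene were sought among 10039 candidates, by the Euclidean distance between centred log2(FPKM + 1) values. For Zfp352 the 5 nearest were Sem1, Mypn, B020031M17Rik, Pdia4 and Map4, at distances from 0.209 to 0.238. Pdia4, a protein disulphide isomerase of the endoplasmic reticulum, measured 37.6 and 38.3 in uninjected embryos, 38.4 and 38.3 with PIASy-Mut and 21.1 and 16.3 with PIASy-WT. For Tcstv3 they were Kdm5a, Hormad1, Noc3l, Helb and Ubl7, at 0.184 to 0.224. Hormad1, which encodes a meiotic chromosome axis protein, measured 91.2 and 121, 128 and 102, and 56.7 and 38.2 in the same order of groups. These distances rest on 6 libraries of 3 groups and describe likeness of profile only.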

How the data were processed

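RNA-seq libraries were made from 2 pools of 5 two-cell embryos per group by full-length cDNA amplification. Per the paper's methods, adapters and low-quality sequence (below Q20) were removed by the authors with Trim Galore, reads were aligned with STAR to mm10, and featureCounts assigned the uniquely mapped ones to genes; the annotation release and strand setting are not given in the sources used here. The deposited values are FPKM per gene and library without spike-ins, computed by the authors over the fragments on genes. FPKM multiplied by gene length gave whole fragments (within 0.01) for 100% of the values above 0, which restored each library's depth of 871663 to 1363928 fragments. Intervals are 95% confidence intervals.

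The authors' own test, on counts, was not used here. FPKM values were instead tested on log2(FPKM + 1) with limma 3.58.1 in R 4.3.3 (lmFit, eBayes with trend, all 6 libraries in 1 model) for the 16100 genes that reached 1 FPKM in 2 or more libraries, with Benjamini-Hochberg adjustment over all of them. Calls required an adjusted P of no more than 0.05. Fold changes on this scale understate the change of low genes. With 2 libraries against 2, an exact permutation test cannot go below P=0.333 and was not run. The libraries of a group are separate pools of embryos, which the study counts as biological replicates. Whether they came from separate injection sessions is not given in the sources used here, so P-values measure the spread between these pools. The fit was run on simulated fragments with known large changes as a check of the code only, and its power for smaller changes was not tested.

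Stretches of 50 bases were compared between annotated transcripts of GENCODE release M21. Per the paper's methods, part of the reads were shorter than 50 bases. Ambiguity of shorter stretches, or outside annotated transcripts, is therefore not covered. RefSeq windows of 250 bases before the start were matched by symbol for 4 of the 8 genes and not for Tcstv1, Tcstv3, Tmem92 and Usp17le. The genes and lists were chosen with earlier results of these data known. The text names these 8 genes, their paralogs by symbol (Usp17l genes and Zfp353-ps) and the 5 nearest profiles of Zfp352 and Tcstv3. It also names the 3 lowest and 3 highest other two-cell genes by mean log2 fold change of PIASy-WT. Gm25774 is named because it overlaps a described gene. The other two-cell genes on chromosome 13 are named for their place, and further Zscan4 genes for their fragment counts. A further gene of the set is not reported here. Alternatives were a pseudocount of 0.1, no filter, a filter of FPKM of at least 5, quantile normalization, eBayes without trend, a replicate block, voom on fragments (at least 10 in at least 2 libraries), the 4 libraries of a comparison alone, and leaving out each library.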

Additional observations from a re-analysis of the deposited data

How the results depend on the processing

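In PIASy-WT against non-injection, the count of the 8 genes called lower was 0 (5.76% of all genes tested) and became 2 with the filter of FPKM of at least 5 (17.4%) and 3 with voom (19%), and was 0 without any 1 library. Against PIASy-Mut it was 1 (6.01%) and became 2 with that filter (17.9%), 4 with voom (18.8%), and 0 with a pseudocount of 0.1 (5.22%), no filter (0.873%), quantile normalization (3.04%), eBayes without trend (2.88%), the replicate block (4.96%) or the 4 libraries alone (0%). It lay between 0 and 1 on leaving out 1 library, with 1 kept only without the second PIASy-Mut library (11%). In PIASy-Mut against non-injection it was 0 in all of these. Of the other two-cell genes, 8 were lower against non-injection, and 2 were with no filter (0.553% of all genes), 4 with quantile normalization (4.34%), 2 with eBayes without trend (1.59%), 13 with voom (19%) and 0 to 9 without 1 library (0% to 10%). Against PIASy-Mut 8 were lower, and, beside the shares given for the 8 genes, 3 were with no filter, 4 with quantile normalization, 3 with eBayes without trend, 15 with voom, 0 with the 4 libraries alone and 0 to 9 without 1 library.

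Without any 1 non-injection or PIASy-WT library, 0 of 16100 genes passed in these comparisons by limma, and without the first PIASy-Mut library 0 passed against PIASy-Mut. The 4 libraries alone also gave 0 there, so these fits say nothing on the 8 genes in particular. Over all genes, lower and higher calls were 928 and 166 against non-injection and 968 and 132 against PIASy-Mut. With voom they were 1941 and 867, and 1913 and 605, of 10193. Without a filter they were 154 and 16, and 243 and 11, of 27826. With eBayes without trend they were 256 and 59, and 464 and 90. With the filter of FPKM of at least 5 they were 1441 and 332, and 1483 and 207, of 8282. With quantile normalization they were 699 and 233, and 490 and 124. Quantile normalization moved the median of all genes from 0.01 to 0.12 and from -0.03 to 0.11.

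Replicate numbers did not pair the libraries (correlation of the replicate differences 0.0037, 0.085 and 0.064 for the 3 pairs of groups). With the replicate block 6 and 8 other two-cell genes were lower against non-injection and PIASy-Mut, where 4.47% and 4.96% of all genes were. Of the 8 genes, 0 were lower against PIASy-Mut.

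Signs turned in 15 of 490 single-gene results, while 422 kept direction and side of the threshold, 39 lost a call and 14 gained one. For PIASy-Mut against non-injection, Tcstv1 became -0.055 with quantile normalization. On leaving out 1 library the values there ran from -0.085 to 0.078 for Zfp352, -0.17 to 0.21 for Tcstv1, -0.15 to 0.11 for Spz1, -0.61 to 0.99 for Usp17la, -0.0032 to 1.41 for Usp17lc and -0.53 to 0.87 for Usp17le. Usp17la ran from -0.40 to 1.19 against PIASy-Mut and Usp17lc from -1.35 to 0.065 relative to uninjected embryos. Against PIASy-Mut, Usp17ld ran from -0.035, without the second PIASy-WT library, to 0.68, and Zscan4-ps3 from -0.29, without the first PIASy-Mut library, to 1.42. Unless stated, the cause of a change was not tested. Depth limits Usp17le, Usp17ld, Tdpoz2, Zscan4-ps1, Zscan4b, Zscan4c, Zscan4e and Zscan4f, which had 20 or fewer fragments in most libraries.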
